A study of Homo sapiens with 8 samples.

Results

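The 3 TET genes, TET1, TET2 and TET3, were followed through a 4-thiouridine pulse and chase in THP-1 cells, a human monocytic leukaemia line with a KMT2A-MLLT3 fusion. They were chosen by name, because earlier results on the same counts had set them apart, so their values are given as a description without a test. The deposited tables count reads over the 3′ untranslated region (UTR) of annotated transcripts. TET genes held 7 of the 64545 counted segments, of which 6 differed in their counts: 1 for TET1, 4 for TET2 and 1 for TET3. All 6 had reads. A half-life was fitted to 5 of them and not to TET1, which had 79 reads over all libraries.

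Cells labelled for 12 h with 30 µM 4-thiouridine (4sU), with fresh medium every 3 h, were washed and given 3 mM uridine. They were harvested at 0 min, 20 min, 40 min, 1 h, 2 h, 8 h and 12 h of this chase, and 1 further library came from cells that never received 4sU. 4sU enters RNA in place of uridine and, once alkylated, is read as a T-to-C change, so a labelled read marks RNA made during the pulse. Each condition had 1 library, and no separate cultures are named. Intervals of levels, ratios and shares below are exact 95% intervals that cover counting error only. Half-life intervals are approximate 95% intervals from the standard error of the fit, widened by scatter about the fitted curve.

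TET proteins are dioxygenases that use iron and 2-oxoglutarate to oxidise 5-methylcytosine in DNA to 5-hydroxymethylcytosine and further products, which glycosylases then remove. TET2 is often mutated in myeloid leukaemia, and 2-hydroxyglutarate made by mutant IDH1 or IDH2 inhibits the enzymes. TET1 is known as a target of KMT2A fusion proteins. The catalytic domain lies in the C-terminal part of each protein.

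The counted segments of TET2 lie at 2 places in the gene, and this separation carries most of the results below. The segment of full-length TET2 starts on chromosome 4 at 106197677 (hg19, forward strand), in the last exon. It is called the distal segment here. A pair of its records held identical counts, and a further record at the same start differed by 1 read in the 40 min and 8 h libraries. The proximal segment starts at 106158598, upstream by 39079 bases, and belongs to a short transcript of 3 exons that encodes 1165 residues, against 2023 residues for full-length TET2. In GENCODE 29 it is 5334 bases long, and 73.1% of it covers intron 3, 1.71% exon 4 and 25.2% intron 4 of full-length TET2. The nested proximal segment starts at 106162591 and lies wholly in intron 4, inside the proximal one, so its reads are counted again there. TET3 has its segment at 74329304 on chromosome 2 and TET1 at 70451572 on chromosome 10, both on the forward strand and in the last exon. QuantSeq reads start near poly(A) stretches, so reads of a short polyadenylated mRNA and of unspliced full-length RNA cannot be told apart in the proximal segment.

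**Figure D1:**
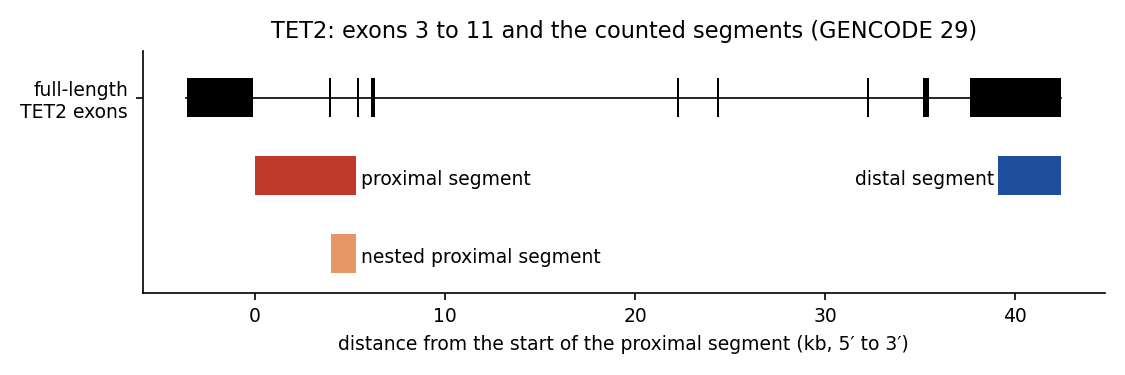
Exons 3 to 11 of full-length TET2 (black) and the 3 TET2 segments (coloured bars), drawn to scale against the distance from the start of the proximal segment in kb. The proximal segment starts in intron 3, close behind exon 3, and runs across exon 4 into intron 4, while the distal segment lies in the last exon.

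The ends of these UTRs are shown because a 3′ method reads near them. Each stretch below begins with the last AATAAA of the UTR, the canonical poly(A) signal, in capitals, and holds 30 bases of the forward strand from GENCODE 29 transcripts (GRCh38).
TET2 proximal: AATAAAgttatgctcaaatgttcaaatatt
TET2 distal: AATAAAatttatatttatttaatgcactct
TET3: AATAAAttttatatttattttttgcactca
TET1: AATAAAtttgtttgaaatgacattttctct
The TET2 distal and TET3 ends shared 26 of 30 positions. The TET2 proximal end matched the distal end at 13 positions, the TET3 end at 14 and the TET1 end at 12. The signal began 31 bases before the end of the proximal UTR, 45 before that of the distal one, and 32 before the ends of TET3 and TET1. Of 36558 annotated UTRs, 54.2% held AATAAA in their last 50 bases. The proximal segment also holds an internal A-rich stretch in intron 3, upstream of the nested segment by 221 bases, with its run of 9 A in capitals.
TET2 proximal, internal stretch: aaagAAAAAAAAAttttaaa
Such runs are not particular to it: the longest run was 10 A in the distal UTR and in TET1 and 9 A in TET3, and runs of at least 9 A occurred in 17.3% of the UTRs. Whether reads began at this stretch was not tested, because the counts give no position within a segment.

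The motif ATTTA, searched on the sense strand with overlaps allowed, is the core of AU-rich elements that destabilise many short-lived mRNAs. It occurred 16 times in the proximal UTR, 4 times in the nested one, 8 times in the distal one, 18 times in TET3 and 5 times in TET1. That is 3.00 per 1000 bases in the proximal, the nested and the TET3 UTR, 2.42 in the distal UTR and 1.87 in TET1, against a median of 1.23 over all UTRs, 60.2% of which held the motif. T made up 33.8% of the proximal UTR, 35.1% of the distal UTR, 31.3% of TET3 and 35.4% of TET1, against a median of 29.3%. The T content of a read sets how many places it offers for a T-to-C change. Over whole UTRs it differed little between these TET segments, but that of the reads is unknown, because the counts give no position.

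Libraries held from 2916043 reads in genes (no 4sU) to 11224018 (8 h), taking the most covered segment of each gene, and levels are given per 1000000 of these reads (CPM). The library without 4sU was the shallowest, and its labelled share was 0.0121%. Of all gene reads, 5.53% were labelled at 12 h, against 30.6% at 0 h. All 12 monocytic and leukaemic markers examined, such as CD33 and MPO, reached 1 CPM, with a summed level of 1299 to 3291 CPM per library. Of 10 markers of other cell types 3 reached 1 CPM, and the summed level was 3.56 to 7.20 CPM. CD3E, HBB and PECAM1 were missing from the named genes with reads and entered the sum as 0, so their absence was not measured. Drosophila spike-in reads were not used, so levels are relative to the library, and in bulk RNA fewer cells with a transcript and less of it per cell cannot be told apart.

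The TET2 distal and proximal segments stood on opposite sides of their no-4sU level at the end of the pulse. The distal segment stood at 25.03 CPM without 4sU (73 reads), and at 9.53, 11.1, 13.2, 15.8, 21.7, 29.5 and 32.5 CPM at 0, 20 and 40 min and 1, 2, 8 and 12 h (83 to 331 reads). Its level was lowest at 0 h and higher in each later library than in the one before. At 0 h it was 2.63-fold lower than without 4sU (interval 1.89 to 3.64), and at 12 h it was 3.41-fold higher than at 0 h (2.66 to 4.42). The 12 h and no-4sU libraries were close, with a ratio of 1.30 (1.00 to 1.71).

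The proximal segment stood at 1.03 CPM without 4sU, on 3 reads, and at 31.6, 22.1, 24.7, 33.9, 21.1, 7.13 and 7.35 CPM over the same chase times (61 to 305 reads). All 5 libraries up to 2 h lay above 20 CPM, while those at 8 and 12 h lay close to each other and between these and the library without 4sU. At 0 h it was 30.7-fold higher than without 4sU, an estimate with a wide interval of 10.4 to 150. At 12 h it was 4.30-fold lower than at 0 h (3.25 to 5.77) and still 7.14-fold higher than without 4sU (2.33 to 35.6), while 24.6% of distinct segments were at least 2-fold higher and 9.64% at least 2-fold lower at 12 h than without 4sU. The nested segment had 0 reads without 4sU, 7.23 CPM at 0 h, at least 7.03-fold higher against the level of 3 counts in that library, and 0.964 CPM at 12 h.

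Shifts of this kind were also found among other segments. Of 17492 distinct segments with enough reads, 24.3% were at least 2-fold higher and 15.4% at least 2-fold lower at 0 h than without 4sU, and 9.15% were at least 2-fold higher and 4.19% at least 2-fold lower at 12 h than at 0 h. For the increase at 0 h over no 4sU, 100 segments stood as high as the proximal one or higher, itself included, while 1501 stood as low as the distal one or lower for the decrease. For the decrease at 12 h against 0 h, 68 stood as low as the proximal one or lower, and for the increase 211 stood as high as the distal one or higher. TET2 was chosen with these values known, so the ranks are a description.

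TET3, which like TET1 has 1 counted segment, stood at 26.4 CPM without 4sU, and at 23.1, 20.4, 25.3, 28.0, 24.4, 34.7 and 48.2 CPM over the chase times (180 to 400 reads in the chase libraries, 77 without 4sU). The libraries at 8 and 12 h were the highest of the 8. TET3 at 0 h was close to its level without 4sU, with a ratio of 0.874 (0.669 to 1.15), and at 12 h it was 2.09-fold higher than at 0 h (1.76 to 2.49) and 1.82-fold higher than without 4sU (1.43 to 2.36). Of all distinct segments, 1398 stood as high as TET3 or higher at 12 h against 0 h.

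TET1 was near the limit of what these libraries can show. It had 11, 10, 12, 10, 13, 7, 7 and 9 reads in the 8 libraries, from no 4sU to 12 h, which is 3.77 CPM without 4sU and 0.624 to 1.44 CPM in the chase. All chase libraries lay below the one without 4sU. TET1 at 0 h was 3.29-fold lower than without 4sU (1.27 to 8.63), and the ratio of 12 h to 0 h was 0.944 (0.340 to 2.59), which allows a change either way.

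**Figure D2:**
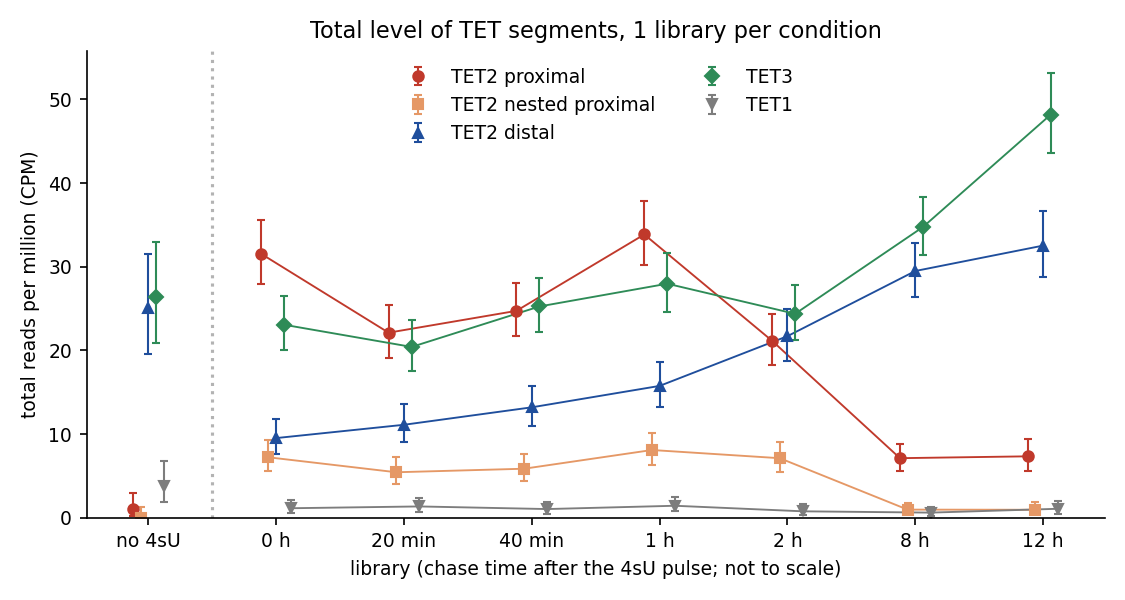
Total level (CPM) of the TET segments in the 8 libraries, from no 4sU at the left to 12 h of chase at the right, 1 library each, with exact 95% counting intervals. The TET2 proximal segment is high from 0 to 2 h and low at 8 h, 12 h and without 4sU, while the distal segment has the reverse course.

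Set against each other, the TET2 segments exchanged rank. The proximal segment held 3.95% of proximal plus distal reads without 4sU (interval 0.822 to 11.1%) and 76.8% at 0 h (72.1 to 81.1%). At 20 min, 40 min and 1 h it held 66.6%, 65.2% and 68.2%. Later shares were 49.4% (2 h), 19.5% (8 h) and 18.4% (12 h). The intervals at 8 and 12 h overlapped each other and neither overlapped that at 2 h, 44.2 to 54.5%. The summed level moved less than either segment, but was not flat. It was 26.1 CPM without 4sU, and 41.1, 33.2, 37.9, 49.6, 42.9, 36.6 and 39.9 CPM over the chase times, highest at 1 h.

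Labelled and unlabelled reads were also examined apart. Among labelled reads the proximal share was 77.6% at 0 h, 62.7% at 2 h, and at 8 h 12 of 20 labelled reads were proximal. Among unlabelled reads it was 75.6% at 0 h and 40.5% at 2 h, with 17.4% and 17.9% in the 8 and 12 h libraries. At 0 h, then, the proximal segment held a similar share of unlabelled and of labelled reads, and the lower share at 8 and 12 h was seen among unlabelled reads. Unlabelled distal reads stood at 3.79 CPM at 0 h, 15.4 CPM at 2 h and 32.5 CPM at 12 h. Unlabelled proximal reads stood at 11.7, 10.5 and 7.11 CPM at the same times. An unlabelled read can be RNA older than the pulse, RNA made during the chase, or a labelled RNA whose read held no T-to-C change. For a single read these cannot be told apart from the counts.

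**Figure D3:**
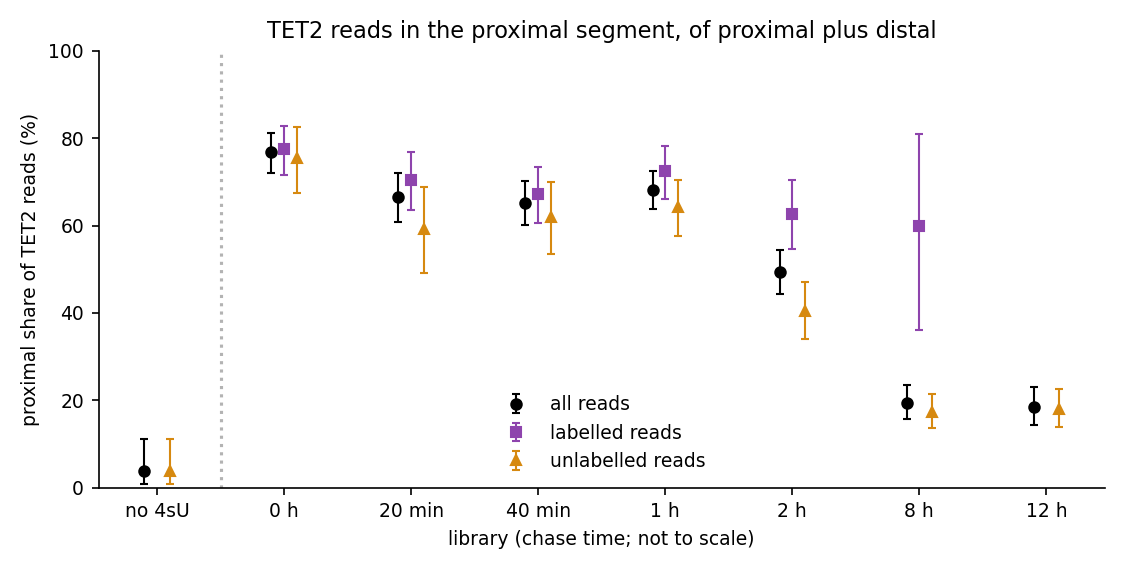
Share of TET2 reads that lie in the proximal segment, of proximal plus distal reads (%), in each library for all, labelled and unlabelled reads, with exact 95% binomial intervals and only where a category holds at least 20 reads. All reads give 3.95% without 4sU, 76.8% at 0 h and 18.4% at 12 h, and the share among labelled reads is 62.7% at 2 h.

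The nested segment held 22.9% of proximal reads at 0 h and 33.7% at 2 h, with 13.8% and 13.1% in the 8 and 12 h libraries. The nested segment makes up 1332 of the 5334 bases of the proximal one, so evenly spread reads would also lie mostly outside it. Most reads of the proximal segment lay outside the nested one in every chase library. That part covers intron 3 and exon 4 and holds the internal A-rich stretch shown above. Of the reads outside the nested segment, 41.3% were labelled at 2 h (32.6 to 50.4%) and 11.6% at 8 h, on 126 and 69 reads.

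How unusual the exchange was could be set against other genes with 2 segments that do not share reads. Of 1476 such genes, with at least 20 reads in each library, the proximal share was at least 20 percentage points higher at 0 h than without 4sU in 7.32% and at least 20 points lower in 3.18%. The median difference was 0.377 points, and from the tenth to the ninetieth percentile it ran from -9.00 to 15.9 points. TET2, at 72.9 points, was the highest of them. The next were KNL1 at 53.7 points, USP32 at 53.1, UHRF1BP1L at 50.5 and HERC4 at 50.4. Between 12 h and 0 h the share was at least 20 points lower in 4.13% of the genes, and TET2, at -58.4 points, was the lowest. Counting only the nested segment as proximal, an alternative chosen after seeing the data, gave 43.2 points for 0 h against no 4sU and -40.3 points for 12 h against 0 h.

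**Figure D4:**
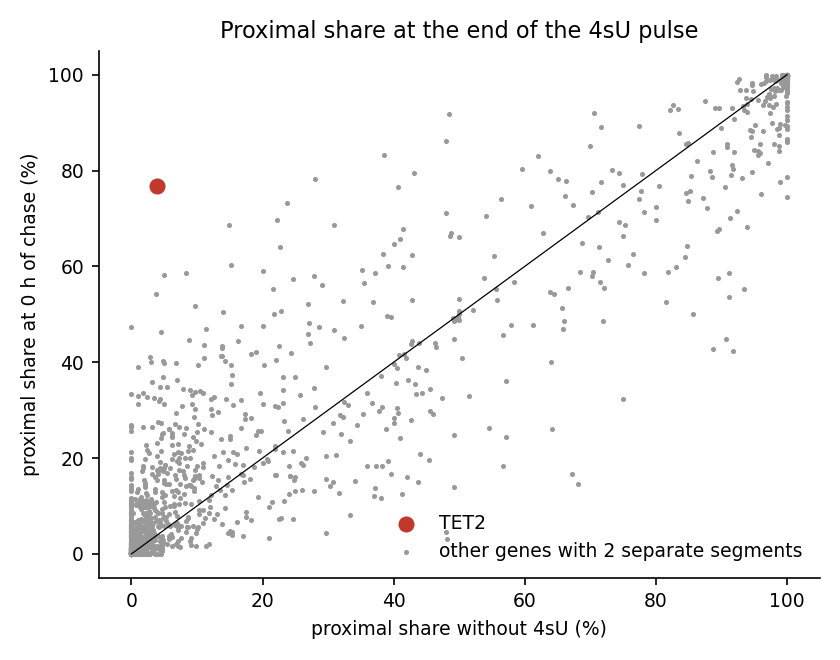
Proximal share of reads (%) at 0 h of chase against that without 4sU for 1476 genes with 2 separate segments; each point is 1 gene and the line marks equal shares. TET2 (red) lies at 76.8% at 0 h and 3.95% without 4sU, farther above the line than any other gene.

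The labelled share of a segment's own reads gave the loss of label. TET2 distal reads were labelled to 60.2% at 0 h, then 57.1%, 57.1%, 42.3%, 29.2% and 2.42% at 20 min, 40 min, 1 h, 2 h and 8 h, with 0 of 270 reads labelled at 12 h, which allows up to 1.11%. TET3 reads had a course close to that, at 60.2%, 57.2%, 57.7%, 50.4%, 32.9%, 2.56% and 0.50%. TET2 proximal reads stood at 62.9%, 68.7%, 62.7%, 51.8%, 50.5%, 15.0% and 3.28%. The 3 segments began close together and parted by 2 h, where the proximal interval, 43.2 to 57.8%, lay above those of the distal segment (23.0 to 36.2%) and of TET3 (26.7 to 39.5%). The median over 16117 segments was 44.0% at 0 h, 33.2% at 2 h and 6.38% at 8 h, so all 3 began above the median. The labelled share was at least 2-fold lower at 2 h than at 0 h in 9.11% of the segments, the TET2 distal one among them, and at 8 h in 82.2%, among them all 3 segments named here.

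No chase library of the nested segment held more than 73 reads, and its labelled share was 65.1% at 0 h and 68.8% at 2 h, then 36.4% at 8 h on 11 reads and 12.5% at 12 h on 8 reads. TET1, on 7 to 13 reads, scattered between 30.0% and 91.7% up to 2 h and had no labelled read at 8 and 12 h. Neither series of shares gives an order.

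A single exponential placed the half-life of the labelled share at 1.65 ± 0.142 h for TET2 distal (SE, interval 1.40 to 1.96 h) and at 1.87 ± 0.185 h for TET3 (1.54 to 2.27 h). These intervals overlap. The proximal segment had 3.67 ± 0.644 h (2.60 to 5.18 h), above both, and the nested one 8.82 ± 3.99 h (3.63 to 21.4 h). The nested value is poorly determined: it was 13.3 h without the 12 h library and 2.57 h on labelled CPM, and libraries of 0 to 2 h alone gave 395 h, far beyond the chase. Over 8831 genes with a resolved half-life the median was 2.72 h, and from the tenth to the ninetieth percentile values ran from 1.81 to 6.63 h. Shorter half-lives than that of TET2 distal were found in 5.56% of these genes, than that of TET3 in 12.2%, and than that of TET2 proximal in 70.9%. The scatter about the curve was 1.04 times binomial error for the distal segment, 2.08 for TET3 and 2.15 for the proximal one, against a median of 3.74 over genes.

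The order of the TET2 segments depended on the quantity fitted. Labelled CPM, which does not divide by the segment's own reads, gave 2.02 h for the proximal and 2.49 h for the distal segment, the reverse order. TET3 gave 2.10 h. Labelled proximal reads stood at 19.9 CPM at 0 h, 10.7 CPM at 2 h, 1.07 CPM at 8 h and 0.241 CPM at 12 h. Labelled distal reads stood at 5.74, 6.34, 0.713 and 0 CPM at the same times, and their level at 2 h was still close to that at 0 h. Libraries of 0 to 2 h alone gave a half-life of the share of 1.85 h for TET2 distal, 2.51 h for TET3 and 4.73 h for TET2 proximal.

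**Figure D5:**
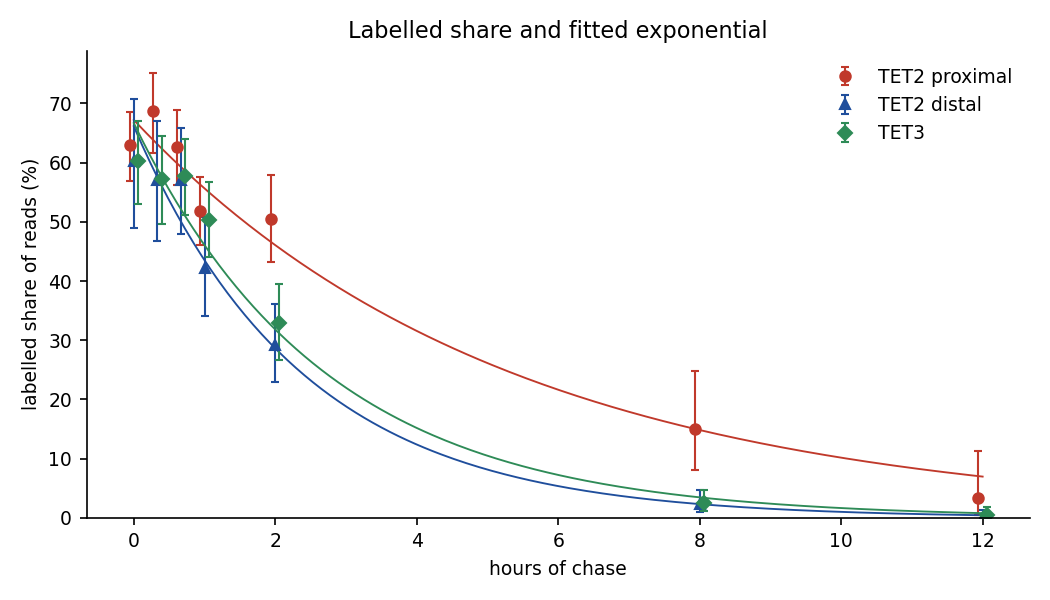
Labelled share of reads (%) against hours of chase for the TET2 proximal and distal segments and TET3, with exact 95% binomial intervals and the fitted exponential for each. The segments begin near 60% and part at 2 h, where the proximal one stands at 50.5%, the distal one at 29.2% and TET3 at 32.9%.

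Among 6319 genes with a mean total of at least 200 reads, the labelled share of TET3 was followed most closely by ZNF148, SLF2 and DDX20, with root-mean-square differences of 1.28, 1.29 and 1.35 percentage points over the 7 chase libraries, against a median of 12.5 points. TET2 proximal was nearest to ZBTB38, DYNC1I2 and DLGAP5, at 3.16, 3.19 and 3.23 points (median 16.8). TET2 distal, added after its values were seen, was nearest to PTPRE, MTMR9 and KANSL1, at 1.61, 1.68 and 1.81 points (median 12.9). TET1 had too few reads for this measure.

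The TET genes act within a larger set that writes, reads and removes DNA methylation, and 40 such genes were examined by role. Reads were found under the names of 38 of them. UHRF1 and SLC23A1 were missing from the named genes with reads. Unnamed transcripts and left-out genes could account for that, so absence of their RNA was not shown. A quasi-likelihood fit in edgeR over the 7 chase libraries, across all genes, asked whether the labelled share changed with hours. Label fell in 31 of 32 tested list members at an adjusted p under 0.05, against 95.3% of 9402 genes tested, and rose in 0 of them, against 0.0213%. The list's median half-life was 2.62 h, with a range of 1.95 to 7.74 h, close to the median of 2.72 h over all genes. Total level rose in 13 and fell in 7 of 34 list members tested in edgeR, against 27.4% and 23.9% of 10643 genes. Such rises and falls are over the chase and make no comparison with the library without 4sU. Of these calls, 9 of the 13 and 4 of the 7 held under every alternative run. Leaving out 1 library ended the call for UHRF2 (0 h, 40 min or 8 h), HELLS (20 min, 40 min, 2 h, 8 h or 12 h), PROSER1 (0 h, 20 min, 1 h or 8 h) and DNMT3A (all but 2 h), among others, and library totals without scaling factors ended it for PARP1. The list's median change was 0.13 log2 units over 12 h, against 0.02 over all genes.

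Among writers of methylation, label fell in 4 of 4 tested (95.3% of all genes tested). Total level rose in 3 of 5 (27.4% of all genes), fell in 1 (23.9%) and did not pass in 1. UHRF2, which binds hemimethylated and hydroxymethylated DNA, had a half-life of 2.01 ± 0.147 h (SE) and HELLS, a chromatin remodeller needed for methylation, one of 2.21 ± 0.381 h. The maintenance methyltransferase DNMT1 had 2.66 ± 0.237 h, or 3.83 h on labelled CPM, which lay beyond its interval. DNMT1 level stood at 343 CPM at 12 h, against 139 CPM at 0 h and 301 CPM without 4sU. DNMT1 total rose by 1.28 log2 units over the chase (edgeR adjusted p = 2.73e-06). The de novo enzyme DNMT3A had 2.84 ± 0.552 h, and its total change of -0.47 (edgeR adjusted p = 0.0479) lost its call in 9 alternatives, with changes of -0.66 to -0.38 without 1 library. DNMT3B fell short of the mean total of 50 reads that the label test required, and its total change was -0.02 (edgeR adjusted p = 0.968).

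Among readers, label fell in 7 of 7 (95.3% of all genes tested). Total level rose in 0 of 7 (27.4% of all genes) and fell in 2 (23.9%). The zinc-finger readers ZBTB4 and ZBTB33 had the shortest half-lives, 1.95 ± 0.378 h and 2.07 ± 0.394 h. ZBTB38 had 3.03 ± 0.235 h, and the methyl-CpG binding protein MBD2 stood apart at 7.74 ± 1.42 h. MBD2 reads were still labelled to 9.11% at 12 h, against 25.4% at 0 h.

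Among enzymes that remove and replace oxidised bases, label fell in 10 of 10 (95.3% of all genes tested). Total level rose in 3 of 10 (27.4% of all genes) and fell in 2 (23.9%). TDG, the glycosylase that excises 5-formylcytosine and 5-carboxylcytosine, the products of TET enzymes, had a half-life of 2.20 ± 0.213 h. TDG total rose by 1.03 log2 units (edgeR adjusted p = 0.000296), with 27.7 CPM at 0 h, 53.8 CPM at 12 h and 41.5 CPM without 4sU. The glycosylase NEIL3 had 2.19 ± 0.405 h. The longest half-life was that of PARP1, a sensor of strand breaks, at 7.23 ± 1.38 h. The abasic-site endonuclease APEX1, at 4.06 ± 0.717 h, the polymerase POLB, at 4.06 ± 0.322 h, and the glycosylase SMUG1, at 4.05 ± 0.667 h, differed by far less than their errors. Without the 12 h library, PARP1 gave 10.9 h.

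Among enzymes of the TET cofactor and of 2-hydroxyglutarate and the ascorbate transporter read here, label fell in 3 of 4 tested (95.3% of all genes). Total level rose in 3 of 5 (27.4% of all genes) and fell in 1 (23.9%). IDH1, the cytosolic enzyme that makes 2-oxoglutarate, had 2.51 ± 0.378 h, and its reads were labelled to 0.503% at 12 h, against 71.4% at 0 h. IDH2, its mitochondrial counterpart, was the member whose label did not pass, at 15.1% at 12 h and 17.9% at 0 h (edgeR adjusted p = 0.505). IDH2 total fell by 0.73 log2 units (edgeR adjusted p = 1.62e-05), while IDH1 total rose by 0.57 (edgeR adjusted p = 0.00729). IDH1 level was 63.7 CPM at 0 h and 95.9 CPM at 12 h, both below the 115 CPM without 4sU. SLC23A2, an ascorbate transporter, had 2.15 ± 0.154 h, and D2HGDH, which oxidises D-2-hydroxyglutarate, 3.16 ± 0.642 h.

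Among partners and recruiters of TET proteins, label fell in 7 of 7 tested (95.3% of all genes tested). Total level rose in 4 of 7 (27.4% of all genes) and fell in 1 (23.9%). The member that fell was SIN3A, by 0.64 log2 units (edgeR adjusted p = 0.00397), with a half-life of 2.12 ± 0.222 h. WT1, a transcription factor that recruits TET2, had 2.00 ± 0.380 h, and DCAF1, a ubiquitin-ligase subunit that acts on TET proteins, 2.07 ± 0.396 h. OGT, the O-GlcNAc transferase that binds TET2 and TET3, had 2.87 ± 0.375 h and rose in total by 0.39 log2 units (edgeR adjusted p = 0.00488). Its partner HCFC1 had 2.79 ± 0.391 h. In 29 of 31 list members with a resolved half-life, libraries of 0 to 2 h alone gave a longer value than all 7 libraries did, beyond the interval, so these half-lives depend on the 8 and 12 h libraries. Labelled CPM in place of the share gave a longer value, beyond the interval, in 4 of the 31. DNMT1 was among them, with TDG at 2.89 h and SLC23A2 at 2.82 h.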

How the data were processed

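The authors deposited raw counts of total reads and of reads with T-to-C changes per 3′ UTR segment. Per the submitters' processing notes, Trim Galore 0.6.5 and bcl2fastq 2.17.1.14 were used, with hg19 and dm3. Labelled shares depend on how many changes a labelled read needs. That number, the aligner and the counter were not given in the sources used here. Segment starts are hg19 positions as the deposited tables name them. GENCODE 29 (GRCh38) served for names and for UTR lengths and sequences. It named 84.9% of 56570 transcripts, and 5.65% of counts had no name. Left out were 3056 segments on other contigs and 85 genes with the counts of another gene.

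CPM are counts divided by the sum over genes of the most covered segment. Labelled shares have Clopper-Pearson intervals, levels and ratios exact Poisson and binomial ones, and a count of 0 is given the limit of 3 counts. The labelled share was fitted by binomial maximum likelihood (SciPy 1.17.1) as background plus an exponential to give half-lives, with standard errors widened by the scatter. A half-life was resolved with the decline called, an excess at 0 h of at least 10 reads, an SE of the log rate of at most 0.5, and a value of 0.25 to 24 h. Across genes, edgeR 4.0.16 (R 4.3.3) fitted counts against hours over the 7 chase libraries with 5 residual degrees of freedom. The label fit took genes with 20 or more labelled reads and a mean total of 50 or more, offset by the total, and the level fit took genes with a mean of at least 20, with TMM factors. DESeq2 1.42.0 was an alternative. On simulated counts for these fits, 197 of 197 changed genes of the level fit (10591 genes, log2 change of 2) and 191 of 200 of the label fit (9412 genes) were recovered, with 11 false calls in each. The simulation used a fixed dispersion that was not estimated from these libraries, and changes of that size alone. Recovery of smaller changes, and false calls at the scatter seen here, were not tested. The edgeR p-values measure scatter about a line among libraries that the labels do not call separate cultures.

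The members, the lists and the tests were chosen with earlier results of these data known. List members named are the 2 with the shortest and the 2 with the longest half-life per role, any that went against its group, and DNMT1, DNMT3A, DNMT3B, IDH1, IDH2, TDG and OGT. Some list members are counted but not reported by name here.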

Additional observations from a re-analysis of the deposited data

How the results depend on the processing

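Of 144 alternatives run on the main results, 131 were classed as unchanged. For half-lives, levels and shares this meant a value within the interval of the main result. For counts of genes called it meant a count within a fixed fold of the main count, not that each gene kept its call. Among all genes, 3822 rises with library totals against 2919 in the main fit were still classed as unchanged. Labelled CPM in place of the share gave 2.02 h for TET2 proximal and 2.49 h for TET2 distal, and 0 to 2 h libraries alone gave 2.51 h for TET3. Summing the proximal and distal segments, which cancels their opposite courses by construction, gave a half-life of 2.21 h and log2 changes of -0.044 for 12 h against 0 h, -0.17 for 8 h against 0 h and 0.66 for 0 h against no 4sU. Those changes were 1.77, 1.63 and -1.39 for the distal segment alone and -2.10, -2.15 and 4.94 for the proximal one. The nested segment as proximal gave 43.2 and -40.3 points. Leaving out 1 chase library gave 3.25 to 4.08 h for TET2 proximal, 1.57 to 1.73 h for TET2 distal and 1.73 to 2.04 h for TET3. Library totals without TMM gave 4 list members that fell in total, against 7, and made 68.0% of all calls on total level increases, against 53.4% with TMM and 50.5% in DESeq2. Without 1 chase library, 31 to 32 list members fell in label, 10 to 12 rose in total and 6 to 8 fell. No paired analysis was possible because each condition has 1 library. Single libraries, relative levels, an unknown conversion threshold and 3 proximal reads without 4sU limit the precision.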
